A study of Mus musculus with 9 samples.

Results

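The EphA receptors are encoded in the mouse by 9 genes, Epha1 to Epha8 and Epha10, and the peaks of TWIST1 chromatin immunoprecipitation (ChIP-seq) at these 9 of 21887 protein-coding genes are described here. A peak was given to the gene whose body held its summit, or else to the nearest gene body within 100 kb, and all 9 genes were found in the annotation. The cells were mouse embryonic stem cells, labelled C57BL/6, that had grown as embryoid bodies for 3 days and received doxycycline for 16 h. Both genotypes were Twist1-/-. The overexpressing cells (OE, 4 ChIP libraries) carried in addition a doxycycline-inducible Flag-Twist1, and the control cells (KO, 2 ChIP libraries, numbered 2 and 3, and 1 input library) had no inducible cassette. The antibody was against TWIST1 itself and not against the tag, so the signal is that of an induced transgene in cells without endogenous TWIST1. The labels do not say whether each genotype was 1 clone, and peak lists hold no expression values by which the cell type could be checked. The design text states that the replicates were biological. The 2 OE input libraries were not analysed here.

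Eph receptors are receptor tyrosine kinases whose ligands, the ephrins, sit in the membrane of the neighbouring cell, so that signalling needs cell contact and can run into both cells. EphA receptors mainly bind the lipid-anchored ephrin-A ligands and are known for repulsion between cells, for keeping cell populations apart and for guiding axons and migrating neural crest cells. TWIST1 is a basic helix-loop-helix factor of neural crest and mesenchyme that binds, with a partner, DNA letters of the form CANNTG, called an E-box.

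Promoter sequence is shown for 4 EphA genes that differed in the libraries with a peak over the gene start: Epha1 in every OE library, Epha5 in OE libraries 1 and 4 alone, and Epha6 and Epha7 in OE libraries 2 and 3 alone. At Epha7 the peaks of OE libraries 1 and 4 lay past the start, inside the gene. Each line gives the 250 bases before the gene start, 5′ to 3′ on the gene's strand, from RefSeq (GRCm38.p6), with every CANNTG in capitals.
Epha1, chr6:42373269-42373518, minus strand: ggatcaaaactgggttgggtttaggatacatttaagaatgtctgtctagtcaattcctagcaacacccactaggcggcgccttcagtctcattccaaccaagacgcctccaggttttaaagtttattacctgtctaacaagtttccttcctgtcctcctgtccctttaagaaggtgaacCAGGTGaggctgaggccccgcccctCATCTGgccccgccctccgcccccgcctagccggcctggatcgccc
Epha5, chr5:84417383-84417632, minus strand: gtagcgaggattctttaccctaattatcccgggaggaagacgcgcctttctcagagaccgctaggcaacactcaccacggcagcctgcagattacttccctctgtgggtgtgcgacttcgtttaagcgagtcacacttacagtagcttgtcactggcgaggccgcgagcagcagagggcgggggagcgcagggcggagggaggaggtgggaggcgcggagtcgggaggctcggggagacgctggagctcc
Epha6, chr16:60605532-60605781, minus strand: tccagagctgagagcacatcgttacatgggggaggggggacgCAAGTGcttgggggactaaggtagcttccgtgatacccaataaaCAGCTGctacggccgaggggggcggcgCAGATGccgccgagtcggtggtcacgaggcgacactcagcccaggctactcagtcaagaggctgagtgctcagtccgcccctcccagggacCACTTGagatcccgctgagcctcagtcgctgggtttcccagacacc
Epha7, chr4:28812881-28813130, plus strand: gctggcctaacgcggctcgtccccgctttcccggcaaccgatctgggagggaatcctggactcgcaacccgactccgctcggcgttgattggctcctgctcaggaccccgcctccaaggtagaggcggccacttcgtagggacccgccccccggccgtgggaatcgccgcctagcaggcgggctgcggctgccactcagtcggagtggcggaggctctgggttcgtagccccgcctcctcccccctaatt
Epha1 held the E-box letters CAGGTG and CATCTG, whose first letters lay at bases -71 and -46 with the gene start counted as 0. Epha6 held CAAGTG at -208, CAGCTG at -164, CAGATG at -137 and CACTTG at -46, and no CANNTG occurred in these stretches of Epha5 or Epha7. In windows of 300 bases, which add 50 bases after the start, CANNTG was present at 4 of the 9 EphA genes (Epha1, Epha6, Epha8 and Epha10). Of 21263 such windows of protein-coding genes 69.0% held it, counted on both strands, since CANNTG reads the same on each. This and the shares below are of windows and not of genes, and a gene can have more than 1 window. CATATG, in 3.19% of all windows, was at none of the 9, and so was a pair of CANNTG motifs with 5 bases between them (0.663%). CAGCTG was at Epha6 and Epha10 (15.6% of all windows). CATCTG, or CAGATG on the other strand, was at Epha1 and Epha6 (14.6%), and CACCTG or CAGGTG was at Epha1 (19.7%). These matches describe letters in the window and not sites of binding.

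The OE lists held 22308, 106750, 87385 and 14078 peaks on the main chromosomes in libraries 1 to 4, the KO lists 94 and 62, and the input list 1642. The Twist1 gene was given 1, 4, 5 and 1 peaks in the OE libraries and none in the other 3, although a peak list does not check the deletion. The number of reads per library is not known here. From a peak's fold and p-value it can be worked out how many fragments lay over a summit (the pileup). The commonest background pileup was 1.00 and 1.2 in OE libraries 1 and 4 (called shallow below), and 5.38 and 5.29 in OE libraries 2 and 3 (called deep). It was 4.73 and 5.09 for the KO ChIP libraries, and 6.46 for the input.

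The first comparison asked whether the EphA genes had peaks with and without the inducible TWIST1. The 9 genes together were given 15, 86, 73 and 13 peaks in OE libraries 1 to 4, 0 in each KO library and 1 in the KO input. The lowest OE count, 13, was above both KO counts, and within OE the deep libraries 2 and 3 had the high counts. In 7 of the 9 genes each OE library had more peaks than either KO library, against 34.9% of all protein-coding genes. All 9 genes had at least 1 peak in OE libraries 2 and 3, where 80.6% and 77.5% of all protein-coding genes had one. In OE libraries 1 and 4 it was 7 of 9, against 47.2% and 37.4% of all genes, and the members without a peak were Epha4 and Epha6 in both. Of all genes, 0.21% and 0.0959% had a peak in KO libraries 2 and 3 and 5.28% in the input, where Epha3 was the 1 member with a peak. The OE mean was 46.8 ± 38.2 peaks (SD, n = 4), and its geometric mean was at least 11.1-fold higher than the 3 peaks per library that a KO count of 0 allows. The two-sided exact permutation test of log2(peaks + 1) had 15 possible labelings of 4 OE and 2 KO libraries. Its p was 0.0667, the smallest this design can give. At the EphA share of OE library 2, the KO lists of 94 and 62 peaks would hold 0.0757 and 0.0499 EphA peaks. A KO count of 0 was thus likely at that share, and the test cannot set EphA genes apart from other genes.

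EphA genes took 0.0672%, 0.0806%, 0.0835% and 0.0923% of the peaks of OE libraries 1 to 4, with exact 95% intervals that all overlapped (0.0376% to 0.111% in library 1, and 0.0492% to 0.158% in library 4). In the KO lists, 0 of 94 and 0 of 62 peaks allow shares of up to 3.19% and 4.84%. These intervals and limits cover counting error only. KO library 2 listed peaks from a fold enrichment of 3.66 upward where the background was at its commonest value. In OE libraries 2 and 3, whose background was like that of KO, 74 of 86 and 61 of 73 EphA peaks reached this level. The single input peak lay inside Epha3 (chromosome 16, 63833605 to 63833824, fold 6.97), 30425 bp after the gene start, and was overlapped by a peak of OE library 4 only.

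**Figure D1:**
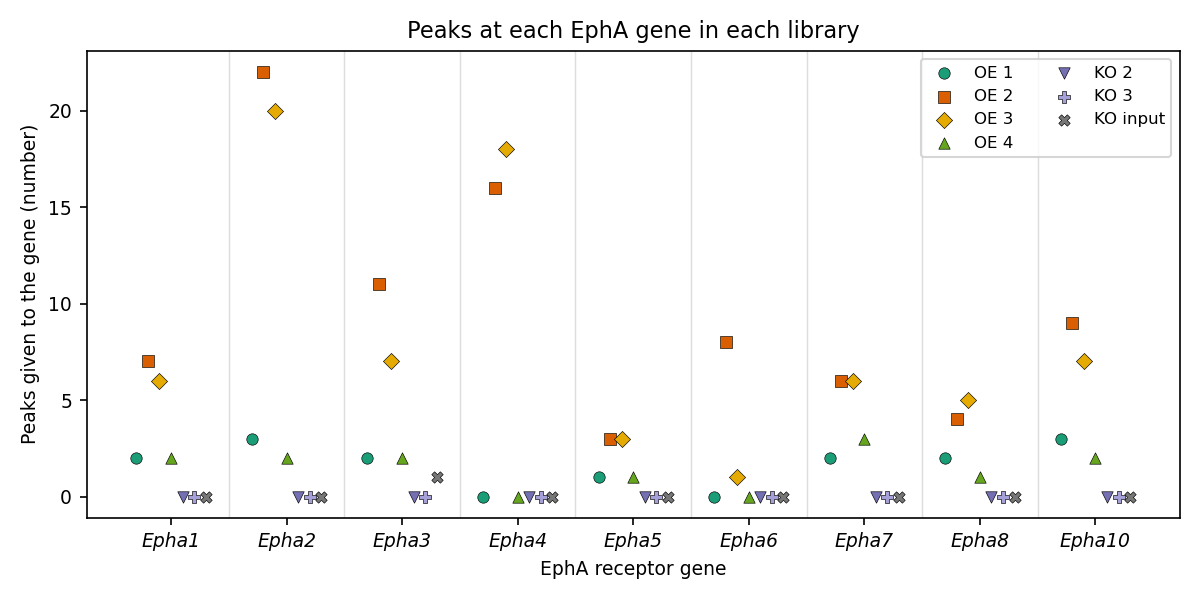
Number of peaks (vertical axis) given to each EphA gene (horizontal axis) in each of the 7 libraries, 1 marker per library. OE libraries 2 and 3 are highest at every gene, both KO libraries are at 0 at all 9 genes, and Epha4 and Epha6 have peaks in OE libraries 2 and 3 only.

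The second comparison asked which EphA sites were occupied in every OE library. Overlapping OE peaks (1 bp or more) were merged. The term reproducible is used for a merged region with a peak from each of the 4 OE libraries and no overlap with a peak of KO or input. The EphA genes held 10 such regions: 2 each at Epha1, Epha2, Epha7 and Epha10, 1 each at Epha3 and Epha8, and none at Epha4, Epha5 and Epha6. At least 1 region was present at 6 of the 9 genes, against 30.3% of all protein-coding genes, and 4 of the 9 had 2 or more, against 8.43%. The median was 1 region per EphA gene and 0 per protein-coding gene. The stretch of genome from which a gene could receive peaks, its territory, was 348 kb at the median EphA gene and 46.0 kb at the median gene, so these shares are not of genes of like size. Per length the order turned round, with 3.39 regions per Mb of EphA territory and 4.97 per Mb over all genes. The ratio was 0.683, with an exact 95% counting interval of 0.328 to 1.26. From these 10 regions alone the EphA density could thus not be told from that of all genes. Larger sets, of 14 regions (at least 3 OE libraries) and 64 (OE libraries 2 and 3 alone), gave ratios of 0.536 and 0.632. Intervals for these ratios were not computed. Dropping the condition on control peaks left the number of EphA regions at 10.

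Epha3, a receptor for ephrin-A5 known from motor and retinal axon guidance, had by far the strongest region. It lay on chromosome 16 from 63856013 to 63857963 (mm10), inside the gene and 7134 bp after its start. Fold enrichment there was 157, 232, 238 and 102 for OE libraries 1 to 4, from summit pileups of 313, 1482, 1494 and 224 fragments. All 4 libraries were high, and the summits fell within 19 bp of each other. Within each list it stood at the 99.5th, 99.8th, 99.8th and 99.1st percentile of fold (mean 99.6 ± 0.307, SD, n = 4), and it ranked 91st of 10375 reproducible regions by this mean. No other protein-coding gene lay nearby, with Csnka2ip 620769 bp and Pros1 927695 bp away. Epha3 had in addition a region in 3 OE libraries, 57558 bp after the start, with folds of 6.49, 28.1 and 19.2 in libraries 1, 2 and 3 and no peak in library 4.

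Epha8, known from axon guidance in the developing nervous system, held the second region in rank (chromosome 4, 136944698 to 136946648). It lay 11287 bp after the gene start, with folds of 14.97, 48.9, 49.1 and 12.7 in OE libraries 1 to 4. Folds were higher in libraries 2 and 3 than in 1 and 4, with no overlap, and the summits lay within 19 bp. Folds from lists of unlike background are not on a common scale, so comparisons of folds between libraries describe the listed values only. Percentiles are ranks within lists of unlike length, so the same holds for comparisons of percentiles between libraries, here and below. The mean percentile was 83.1 ± 17.4 (SD, n = 4). This is 16.5 points below the Epha3 region, which is less than the larger of the SDs, although the Epha3 region had the higher fold in each of the 4 libraries.

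Epha2, a receptor of epithelia and early embryonic cells, was the member with most peaks. It had 3, 22, 20 and 2 peaks in OE libraries 1 to 4, high in the deep libraries and low in the others. Both of its reproducible regions lay outside the gene. The downstream one (chromosome 4, 141338707 to 141339463) was 9644 bp past the gene end, with folds of 17.97, 10.3, 14.9 and 13.6. The upstream one (chromosome 4, 141291107 to 141292791) was 9392 bp before the start, with folds of 11.5, 18.96, 18.4 and 11.8. At the downstream region folds of deep and shallow libraries overlapped, but the deep ones ranked higher (percentiles 83.0 and 89.7 against 77.4 and 68.5). At the upstream region the folds of the deep ones were higher. Another 15 regions at Epha2 were shared by the 2 deep libraries and absent from the shallow ones, among them 6 that lay from 11639 to 20369 bp before the start. No peak of any library touched the 300-base window at the Epha2 start.

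Epha1, the founding member of the family and mainly an epithelial receptor, was the only EphA gene with a peak over its start window in all 4 OE libraries. The region (chromosome 6, 42373017 to 42374083) covered the gene start and all of the sequence shown above. Its folds were 13.5, 9.72, 10.97 and 11.8, the narrowest spread of the 10 regions in units of the mean (11.5 ± 1.58, SD, n = 4). Here the folds of the shallow libraries were slightly above those of the deep ones. Within their own lists the shallow ones ranked lower (percentiles 67.5 and 61.2 against 81.3 and 83.9). The summits were at -40, -63, -62 and 71 bp from the start in libraries 1 to 4. The second Epha1 region (chromosome 6, 42385419 to 42386372) lay 12521 bp outside the gene on its upstream side, between Epha1 and the taste receptor gene Tas2r143, which was 14403 bp away on the other side. Its folds of 9.98, 50.2, 24.3 and 7.26 were higher in libraries 2 and 3 than in 1 and 4, and its summits fell within 13 bp.

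Epha10, a receptor without kinase activity, had both of its regions inside the gene. The one 13124 bp after the start (chromosome 4, 124894574 to 124895449) had folds of 27.9, 7.05, 6.83 and 17.3. Here OE libraries 1 and 4 were above 2 and 3, the opposite of Epha8. The one 28500 bp after the start (chromosome 4, 124909979 to 124910529) had folds of 11.98, 10.3, 7.31 and 6.81, which overlapped between the deep and the shallow libraries. By percentile the deep libraries were higher there (83.0 and 70.4 against 62.5 and 25.9). A further region, 24591 bp after the start, was in 3 libraries with folds of 9.48, 20.7 and 25.3 in OE libraries 1 to 3.

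Epha7, expressed in the neural folds and in cortical progenitors, had a region upstream and a region at its start. The upstream one (chromosome 4, 28783682 to 28784463) lay 28996 bp outside the gene. Its folds were 10.98, 31.0, 16.8 and 9.99, higher in the deep libraries, and its summits fell within 22 bp. The region at the start (chromosome 4, 28812939 to 28814072) was the weakest of the 10, with folds of 8.98, 3.92, 3.97 and 6.36, a mean percentile of 30.3 ± 11.7 (SD, n = 4) and rank 10210 of 10375. The shallow libraries had the higher folds, but the percentiles of 47.3, 26.7, 26.1 and 20.9 in OE libraries 1 to 4 overlapped. Its peaks formed a chain and did not all coincide. In OE libraries 2 and 3 the summits were at -4 and -42 bp, over the sequence shown above, while in libraries 4 and 1 they were at 554 and 847 bp, inside the gene. The peaks of libraries 1 and 2 shared 0 bp and those of libraries 2 and 4 shared 24 bp. This region was no longer called without OE library 4, with summits required within 100 bp, or with −log10 q of at least 10. In each case Epha7 kept 1 region, and it also had 1 with equal list lengths.

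**Figure D2:**
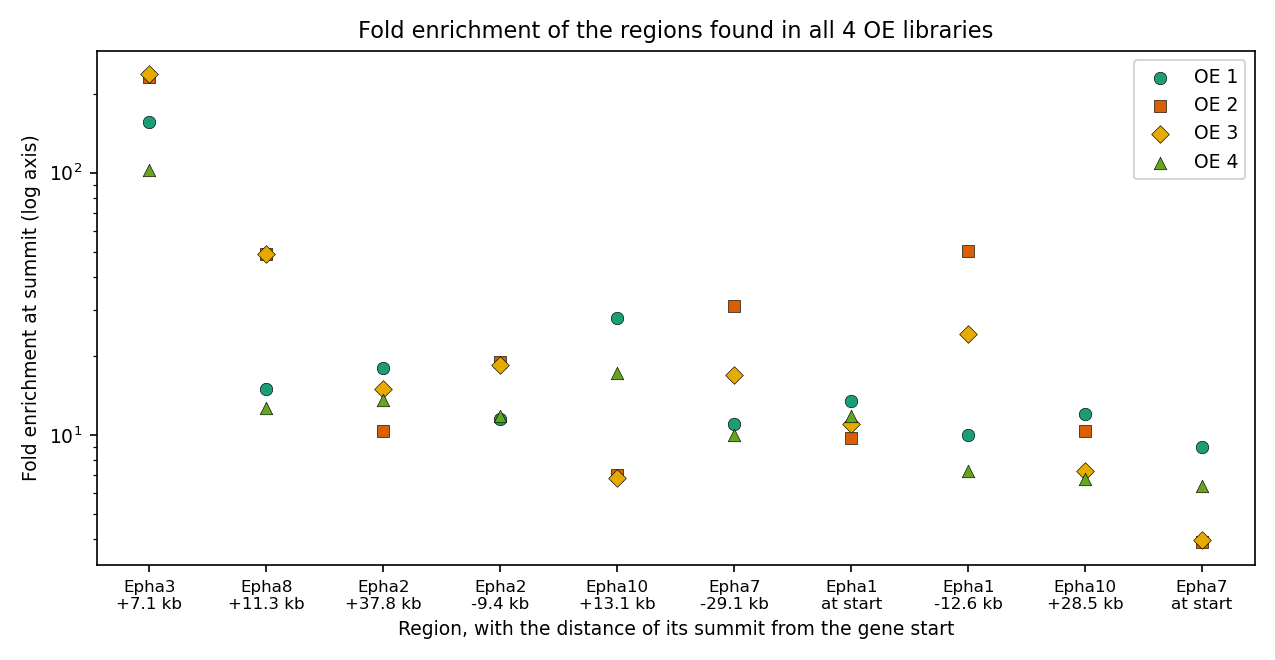
Fold enrichment at the summit (vertical log axis) of the 10 reproducible EphA regions in each OE library, ordered from left to right by mean percentile, with the distance of each summit from the gene start under the gene name. The Epha3 region lies between 102 and 238, and every other value lies between 3.92 and 50.2.

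In the order of mean percentile, the 8 regions between Epha3 and the Epha7 start ran from 83.1 at Epha8 down to 60.5 at Epha10. Each of these differed from its neighbour by 0.0363 to 0.267 of the larger SD, so their order is not resolved by this measure. The SD is taken over percentiles from lists of unlike length, and so is not replicate spread alone. The median over the 10 regions was 75.3, close to the 71.5 of all 10375 reproducible regions. Of the 10, 6 lay inside genes, 3 upstream and 1 downstream, and 2 had their summit within 1 kb of the gene start. Exons and introns were not analysed here.

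Epha4, Epha5 and Epha6, receptors of the developing nervous system, had no reproducible region. Epha4, which binds ephrins of both classes and is needed for corticospinal and hindbrain patterning, had 0, 16, 18 and 0 peaks in OE libraries 1 to 4. The deep libraries were high and the shallow ones had none. Of its 21 merged regions 13 were shared by OE libraries 2 and 3, and they were spread from 82781 bp outside the gene on its upstream side to 50851 bp beyond its other end. The best of them by rank (chromosome 1, 77440308 to 77441032) lay inside the gene, with fold 12.9 in OE library 2 and 13.98 in library 3. A peak over the Epha4 start had folds of 3.76 and 4.77. At their own background, OE libraries 1 and 4 listed peaks from a fold of 4.00 and 4.09. In libraries 2 and 3, 13 of 16 and 13 of 18 Epha4 peaks reached 4.09. Folds at the lower background of the shallow libraries are not on a common scale with these. The counts thus do not show how many Epha4 peaks the shallow libraries could have listed. Over the genome, 39.3% of regions of OE libraries 2 and 3 at a mean percentile of 80 to 90 were also listed in library 1 or 4, and 24.0% of those at 70 to 80. None of the 13 Epha4 regions lay above 90, where the share was 83.7%.

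Epha5, an ephrin-A receptor of the forebrain and retina, had 1, 3, 3 and 1 peaks in OE libraries 1 to 4. In libraries 1 and 4 the single peak covered the gene start and little of the sequence before it, with folds of 8.98 and 12.3 and summits 25 and 130 bp inside the gene, and neither deep library had a peak there. The position of this merged region also lay inside another protein-coding gene, Gm42163, so the region counted for both genes. It was the only 1 of 51 EphA regions seen in exactly 2 libraries that came from OE libraries 1 and 4, the other 50 being from 2 and 3. The best region of the deep libraries lay beyond the other end of the gene (chromosome 5, 83968946 to 83969477), with folds of 15.99 and 11.4.

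Epha6, the longest EphA gene with a body of 969 kb, had 0, 8, 1 and 0 peaks. Its 1 region shared by OE libraries 2 and 3 (chromosome 16, 60604915 to 60606673) covered the start window with its E-boxes. The folds were 9.09 and 11.3, with summits at -160 and -156 bp. The annotated gene body ran on upstream of this start (60605531) to 60610911, so both summits lay inside the body. The other 6 merged regions came from OE library 2 alone. Peaks in OE libraries 2 and 3 with none in 1 and 4, the pattern of Epha4 and Epha6, were found at 28.1% of all protein-coding genes.

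Peaks over the start windows differed between the deep and the shallow libraries. In OE library 1 they were at Epha1, Epha5 and Epha8 (3 of 9, against 23.4% of all genes) and in library 4 at Epha1 and Epha5 (2 of 9, against 18.9%). In OE libraries 2 and 3 they were at Epha1, Epha4, Epha6, Epha7 and Epha10 (5 of 9, against 51.9% and 53.3%). A reproducible region lay over the start window of Epha1 and Epha7, 2 of 9, against 17.1% of the 17492 protein-coding genes with such a window. The shares of members are near those of all genes. No KO or input peak touched an EphA start window, where 0.00572% of all genes had one in KO library 2, 0% in KO library 3 and 2.37% in the input. Epha2 and Epha3 had no peak there in any library.

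**Figure D3:**
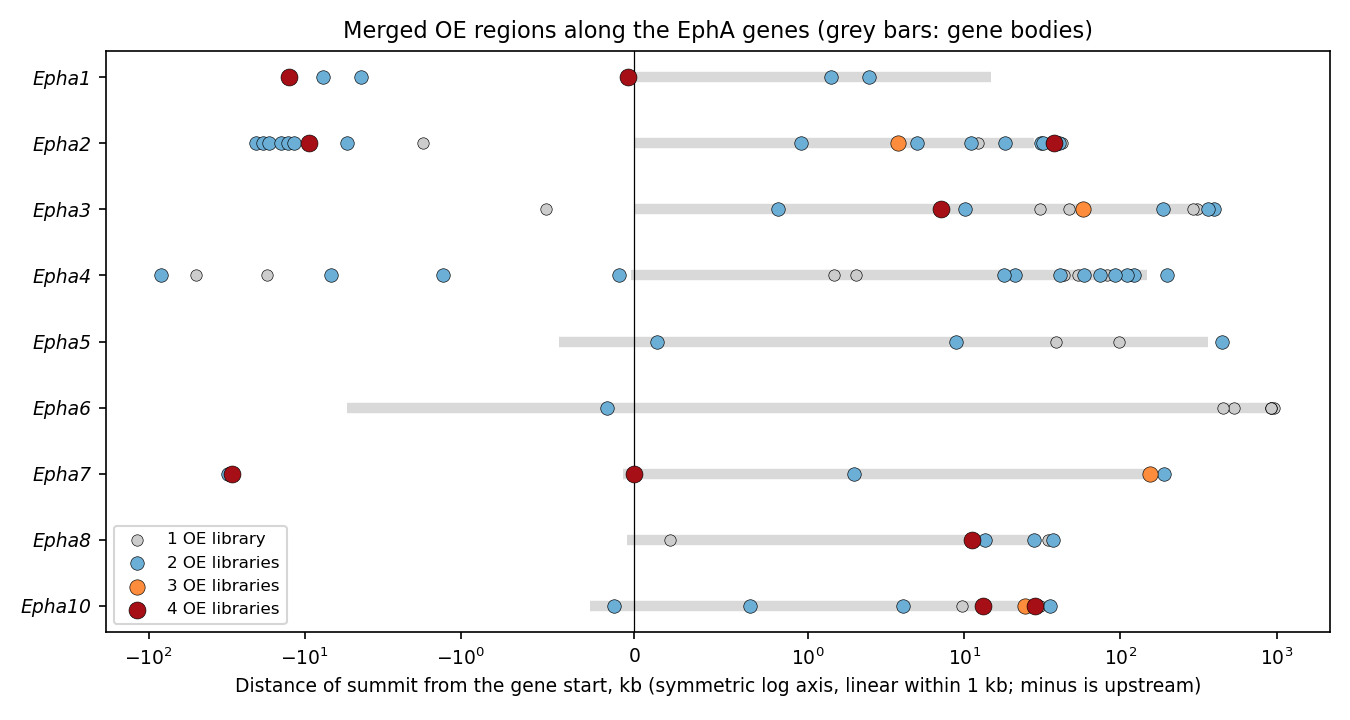
Summits of all 94 merged OE regions at the EphA genes by distance from the gene start in kb (horizontal symmetric log axis, linear within 1 kb, minus is upstream), 1 row per gene, coloured by the number of OE libraries that support them, with grey bars for gene bodies. Of the 94, 57 lie inside genes, and the 10 regions of 4 libraries are at Epha1, Epha2, Epha3, Epha7, Epha8 and Epha10.

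The EphA genes differed among themselves in how densely they were covered. In OE library 2, Epha2, Epha1 and Epha10 had 31.7, 24.6 and 24.3 peaks per 100 kb of territory, and in OE library 3 they had 28.8, 21.1 and 18.9. Over all protein-coding genes, as all their peaks over all their territory, the values were 5.05 and 4.20. These are not values for genes of like territory. Epha8 followed with 7.34 and 9.17, and Epha4 was near the value of all genes with 4.60 and 5.17. Epha3, Epha7 and Epha5 had 2.11, 1.69 and 0.648 in library 2 and 1.34, 1.69 and 0.648 in library 3. Epha6 had 0.747 and 0.0934, so Epha5 was lowest in library 2 and Epha6 in library 3. The genes above the genome value in both libraries were the 4 with territories of 28.5 to 69.5 kb, and those below it in both were the 4 with territories of 354.5 to 1070.5 kb. Epha3 held the strongest region of the family in a territory of 520.5 kb with few other peaks.

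**Figure D4:**
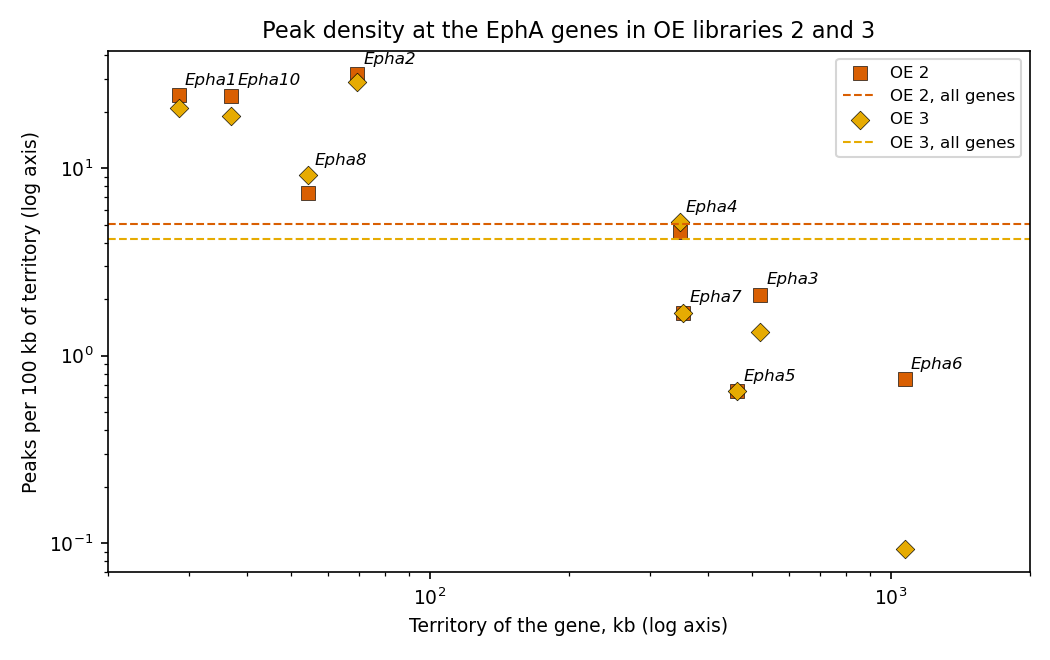
Peaks per 100 kb of territory (vertical log axis) against the territory in kb (horizontal log axis) for each EphA gene in OE libraries 2 and 3, with dashed lines at the value over all protein-coding genes. Epha1, Epha2, Epha8 and Epha10 lie above the lines and Epha3, Epha5, Epha6 and Epha7 below them in both libraries.

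Other genes of the Eph pathway were counted in the same way. Of the EphB receptors 3 of 5 had a reproducible region, led by Ephb2 and Ephb3 with mean percentiles of 99.0 ± 0.630 and 97.2 ± 2.32 (SD, n = 4), and Ephb4 and Ephb6 had none. The ephrin-A ligands had a region at 2 of 5 genes, Efna5 (99.2 ± 0.788) and Efna3 (78.0 ± 9.51), and none at Efna1, Efna2 and Efna4. Efna5 encodes the ephrin that EphA3 binds with high affinity. The ephrin-B ligands had a region at 2 of 3 genes, Efnb2 and Efnb1, and none at Efnb3. The best Efnb2 region lay 95622 bp outside the gene, near the limit of 100 kb. Of 34 genes for effectors, adaptors and proteases of the pathway 21 had a region, led by Chn2, a Rac regulator of the chimaerin family, and Vav2, a guanine nucleotide exchange factor that acts below Eph receptors. Their best regions had folds of 435, 489, 496 and 289 (Chn2) and 270, 807, 1048 and 217 (Vav2) in OE libraries 1 to 4. Against the 30.3% of all genes the lists stood at 60%, 40%, 66.7% and 61.8%, with median territories of 144, 30.5, 144 and 162 kb against 46.0 kb over all genes.

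Genes with peak counts like those of a member were looked for over the 7 libraries. Epha1, Epha2, Epha7 and Epha10 tied for the most reproducible regions, and each was compared with genes whose territory was within 1.2 times its own, by the sum over the libraries of absolute differences in log2(peaks + 1). Epha1 had the same 7 counts as Cnot8 and Slc43a1 (sum 0, of 2564 genes), followed by Sowaha (0.193). Epha2 was nearest to Itpr3 (0.131), Srrm3 (0.420) and Pxn (0.580) of 2221 genes. Epha7 was nearest to Adamts20 (0.415), Cdh2 (0.585) and Erc1 (0.637) of 477 genes, and Epha10 to Mtres1 (0.193), Srrm2 (0.307) and Zfp1 (0.345) of 2572. At Itpr3 the counts were 3, 21, 21 and 2 in OE libraries 1 to 4, beside the 3, 22, 20 and 2 of Epha2.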

How the data were processed

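TWIST1 ChIP-seq peak lists of 7 libraries were analysed: 4 OE ChIP, 2 KO ChIP and 1 KO input, grouped by their titles. The submitters' processing notes name MACS2, BWA, Trimmomatic and Picard as tools, and GRCm38.p5 and mm10 as builds. What the caller used as control is not given in the sources used here, nor are its settings, and both bear on the peaks that pass and on their fold. The authors deposited 1 list per library, so replicates were not pooled. The deposited fold enrichment is a ratio over local background, and the deposited −log10 p-values and q-values are the caller's (every −log10 q was at least 2.00). The deposited score, a multiple of the −log10 q, was not used further. Each fold is the authors' own value for that peak and was ranked only within its list.

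Peaks on the 21 main chromosomes were given by summit to protein-coding genes of RefSeq GRCm38.p6, whose main chromosomes share mm10 coordinates, with Python 3.11.15, pandas 2.3.3, numpy 2.4.6 and scipy 1.17.1 (figures: matplotlib 3.10.9). A summit inside several genes counted for each. A region's position is the middle summit of its libraries, the lower of the middle pair for 4. Territories were measured on a grid of 500 bp. Gene starts and strands came from RefSeq promoter windows, and no genome sequence was used. Such a start can lie inside the annotated gene body, as at Epha6. Pileups are whole numbers within 0.05 for at least 85.5% of the peaks of each list. The steps were tested on simulated data. The only test was an exact permutation test over libraries. All 9 members are named. Of other pathway lists the 2 highest-ranked genes are named, and genes without a region where 3 or fewer. For the members tied for most regions, the 3 genes most like each are named. Members and lists were chosen with earlier results of these data known. Alternatives covered the q-value limit, distance, gene types, libraries required, list length, summit spacing, pseudocount and leaving out each replicate.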

Additional observations from a re-analysis of the deposited data

Results flagged for a closer look

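Epha6 had 8 peaks in OE library 2 and 0, 1 and 0 in libraries 1, 3 and 4, so a single library stood far from the others. Of 32 sets of 4 OE values examined this was the only one set apart in this way. The criterion, Dixon's at 95%, nominally sets apart about 1 in 20 sets by chance, and its rate for peak counts from lists of such unequal length was not tested. OE library 3, of like background pileup, had 1 peak at this gene.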

How the results depend on the processing

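The number of EphA genes with a reproducible region stayed between 5 and 7 under every alternative planned or added, except with OE libraries 2 and 3 alone (added after seeing the data), where it was 9. The number of regions was 10 in the main result, 6 for summits inside gene bodies only, 5 with equal list lengths, 5 with summits within 100 bp of each other and 64 with OE libraries 2 and 3 alone. Leaving out each OE replicate gave 10 to 12 regions. Of the single genes, Epha2 had 0 regions when only summits inside gene bodies counted and when summits had to lie within 100 bp, and Epha10 had 0 with equal list lengths. Epha5 had 1 region and Epha7 kept 2 with OE libraries 1 and 4 alone, also added after seeing the data. The region density ratio stayed below 1 in all alternatives run, from 0.497 without OE library 4 to 0.790 with genes of every type competing for peaks. The log2 difference in EphA peaks between OE and KO was 5.11 with a pseudocount of 1 and 6.09 with 0.5. Both KO counts were 0, so its size depends on the pseudocount. With a pseudocount of 1 the difference ranged from 4.67 to 5.55 when a replicate was left out. Exact permutation p-values then were 0.1 or 0.2, the smallest those designs give. Libraries 2 and 3 share their numbers between OE and KO, and no label says that a number marks a shared culture. With the replicate block over these 2 pairs the difference was 6.33 (exact p = 0.5, the smallest possible). At 13 places with a peak in all 4 of these libraries, deviations of same-numbered libraries correlated at 0.390. With so few places and no test, this value cannot tell whether the numbers mark shared cultures. At the commonest background, the smallest fold listed was 4.00 and 4.09 in OE libraries 1 and 4, and 2.51 and 2.54 in libraries 2 and 3. The part of depth in the counts of regions was not tested.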
